A study of Mus musculus with 2 samples.

Results

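A set of 10 genes of uptake and lipoprotein transport in the visceral endoderm was examined in RNA from mouse embryonic stem (ES) cells: the receptor genes Lrp2, Cubn and Amn with the endocytic adaptor gene Dab2, and the genes of the secreted apolipoproteins and carriers Apoe, Apoa1, Apoa2, Apob, Ttr and Afp. The members were chosen by name and matched to the symbols of the deposited table. Of the 10 genes named, 9 were measured, among 13620 genes in all, and Afp, which encodes alpha-fetoprotein, was not analysed here. The cells were of strain C57BL/6J and of genotype Fbxl10 T/T (1 library) or wild type (WT, 1 library), grown in serum with leukemia inhibitory factor on mitotically inactive fibroblast feeders, which were depleted before use by letting them attach. Fbxl10 is an older symbol of Kdm2b, whose protein binds unmethylated CpG islands as part of a variant Polycomb complex, and the study asks how Fbxl10 bears on DNA methylation of genes bound by Polycomb. The methylation data were not analysed here. The labels do not describe the T allele further, nor how many clones or cultures stand behind a library.

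The visceral endoderm is the absorptive epithelium that surrounds the early mouse embryo. It takes up maternal proteins through megalin (the product of Lrp2) and cubilin (Cubn), large apical receptors that share ligands, and it secretes apolipoproteins, transthyretin (Ttr) and alpha-fetoprotein, as the liver does later. Cubilin has no transmembrane segment and reaches the surface bound to amnionless (Amn), while Dab2 links the tail of megalin to clathrin.

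Levels are given as normalised CPM, gene read counts per 1000000 reads of the authors' effective library size. The listed genes held 27109446 reads in Fbxl10 T/T and 21198574 in WT, and 3 reads corresponded to 0.122 and 0.126 CPM. Kdm2b itself stood at 10.6 CPM in Fbxl10 T/T and 102.5 CPM in WT. With 1 library per genotype, no difference was tested, and "higher" and "lower" describe these libraries. Intervals are exact 95% intervals for counting error only. Since the RNA came from whole cultures, fewer cells of a type and less RNA per cell cannot be told apart. Log2 ratios are of Fbxl10 T/T over WT after adding 0.5 CPM to both, which understates the ratios of low genes, and a gene was called at a 2-fold difference on this scale if either library held 1 CPM or more of it. Genes that reached 1 CPM in WT alone (1480) or in Fbxl10 T/T alone (243) could enter only by being higher there, for example Dab1, Apobec1, Foxa1 and Tmprss2 in WT. Of 13512 such genes, 14.8% were called higher (1994) and 20.6% lower (2781), with a median log2 ratio of 0.02. These shares stand as the background of every list count below. Scaling to the total of listed reads set the log2 ratios about 0.31 lower, with 1331 genes then called higher and 3494 lower, and scaling to the upper quartile set them about 0.24 lower, with 1438 and 3254.

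The labelled cell type was checked against 15 pluripotency markers, chosen after the data were seen. All 13 measured were present in both libraries, but 8 were lower and none higher in Fbxl10 T/T, with a median log2 ratio of -2.81. Nanog had 48.8 CPM in Fbxl10 T/T and 782.5 CPM in WT, Sox2 had 30.9 and 518.1 CPM and Pou5f1 256.6 and 1328 CPM, whereas Klf4 had 513.7 and 591.1 CPM. The part of this difference, and of the endoderm markers given further on, in the values of the 10 genes was not tested.

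The promoter windows of members on both sides of the comparison are shown first, because KDM2B protein binds CpG-rich DNA. The sequences are RefSeq's, from 250 bases before to 50 after an annotated start, in build GRCm38.p6, on the strand of the gene, with each CG in capitals. They lie at chr2:69585980-69586279 (minus strand) for Lrp2, chr2:13491827-13492126 (minus strand) for Cubn, chr7:19699139-19699438 (minus strand) for Apoe and chr1:171224804-171225103 (plus strand) for Apoa2.
Lrp2: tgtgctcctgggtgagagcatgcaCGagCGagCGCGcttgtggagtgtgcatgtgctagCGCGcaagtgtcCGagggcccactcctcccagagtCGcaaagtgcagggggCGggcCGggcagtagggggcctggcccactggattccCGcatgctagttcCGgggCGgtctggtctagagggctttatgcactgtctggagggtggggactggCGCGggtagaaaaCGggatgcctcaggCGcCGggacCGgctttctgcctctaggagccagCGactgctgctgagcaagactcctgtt
Cubn: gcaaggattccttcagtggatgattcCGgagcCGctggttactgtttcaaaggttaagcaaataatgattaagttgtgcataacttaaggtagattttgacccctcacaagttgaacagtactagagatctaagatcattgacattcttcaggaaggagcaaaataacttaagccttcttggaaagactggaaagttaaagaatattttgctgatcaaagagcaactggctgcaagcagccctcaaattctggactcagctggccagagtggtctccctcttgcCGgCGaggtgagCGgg
Apoe: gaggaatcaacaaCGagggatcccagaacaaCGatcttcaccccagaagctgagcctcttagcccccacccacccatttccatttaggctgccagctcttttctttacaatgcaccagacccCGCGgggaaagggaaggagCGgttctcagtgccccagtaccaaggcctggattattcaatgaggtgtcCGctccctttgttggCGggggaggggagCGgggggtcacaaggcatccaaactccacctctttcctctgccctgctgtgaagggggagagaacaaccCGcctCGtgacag
Apoa2: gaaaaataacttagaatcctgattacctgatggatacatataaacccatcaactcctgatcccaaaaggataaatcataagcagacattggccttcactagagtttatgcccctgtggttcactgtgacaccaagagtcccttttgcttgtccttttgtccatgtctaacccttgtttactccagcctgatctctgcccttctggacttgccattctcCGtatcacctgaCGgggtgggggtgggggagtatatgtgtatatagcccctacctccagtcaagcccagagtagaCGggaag

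These windows hold 20 CG in Lrp2, 5 in Cubn, 10 in Apoe and 3 in Apoa2. The median over all 32851 windows of this length was 7, with quartiles of 3 and 20. Windows of 8 members were examined, 12 windows in all, and Ttr, on chromosome 18, was not included. Amn had 15 CG, Apob 9 and Apoa1 4. Dab2 had 2 at its upstream start and 19 at a start further down the gene, and the other windows of Apoe had 12 and 11. The CG counts of the receptor and adaptor genes, from 2 to 20, thus overlapped those of the secreted genes other than Ttr and Afp, from 1 to 12. The letters GATAA, the core recognised by GATA factors, occurred on either strand in 4 of the 12 windows (Dab2 upstream, Apoa1, Apob and 1 of Apoa2), near the 25.4% of all windows that hold it. A match describes the letters only, and neither binding nor DNA methylation was measured here.

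All 4 receptor and adaptor genes were higher in Fbxl10 T/T, by 4.91- to 8.52-fold, against 14.8% of all genes called higher. None of the 5 measured secreted genes was called higher. Among them Apoa2, Apob and Apoa1 were called lower, against 20.6% of all genes, though Apob and Apoa1 held 1 CPM in WT alone and had to be lower, while Apoe and Ttr differed by less than 2-fold. The summed level of the receptor and adaptor genes was 4559 CPM in Fbxl10 T/T and 694.7 CPM in WT, and that of the measured secreted genes 1285 and 1667 CPM.

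**Figure D1:**
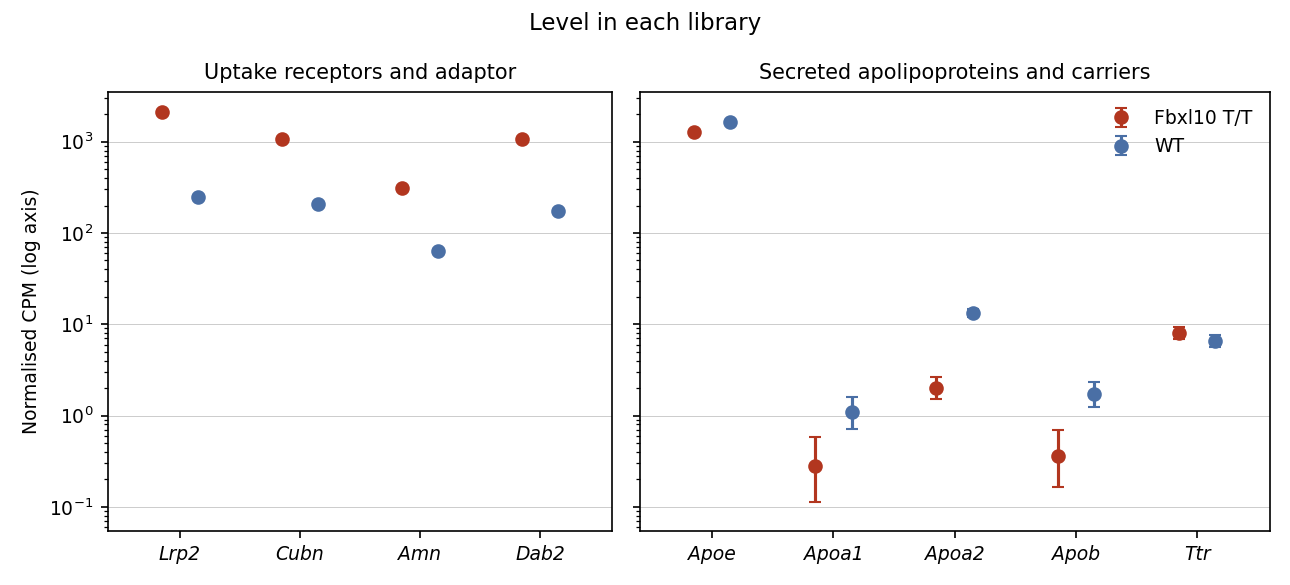
Level of each measured gene in the Fbxl10 T/T library (left of each pair) and the WT library (right), as normalised CPM on a log axis, with exact Poisson 95% intervals that cover counting error only and lie within the point for high genes. All 4 receptor and adaptor genes stand higher in Fbxl10 T/T, up to 2103 CPM for Lrp2, while Apoa1, Apoa2 and Apob stand lower and Apoe and Ttr lie close in both libraries.

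Megalin showed the widest difference. Lrp2 (ENSMUSG00000027070, chromosome 2 from 69262392 to 69424124 in mm9) had 2103 CPM in Fbxl10 T/T from 51911 reads, against 247 CPM in WT from 5893 reads. This was 8.52-fold higher (8.29 to 8.76). Of the 13512 genes, 104 had a higher log2 ratio. Megalin is also the scavenger receptor of the kidney proximal tubule, and it was well represented in WT cells too.

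The genes of the cubilin-amnionless complex, known as cubam, differed by nearly equal factors. Cubn (ENSMUSG00000026726, chromosome 2 from 13197963 to 13413503 in mm9) had 1078 CPM in Fbxl10 T/T and 208.4 CPM in WT, 5.17-fold higher (5.02 to 5.33). Amn (ENSMUSG00000021278, chromosome 12 from 112509309 to 112514463 in mm9) had 312.7 CPM in Fbxl10 T/T and 63.7 CPM in WT, 4.91-fold higher (4.64 to 5.19). The counting intervals of these folds overlap, whereas that of Lrp2 lies above both.

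Dab2 (ENSMUSG00000022150, chromosome 15 from 6249849 to 6390705 in mm9) had 1066 CPM in Fbxl10 T/T and 175.8 CPM in WT. It was 6.06-fold higher (5.87 to 6.26), between Lrp2 and Cubn. In the GENCODE M21 annotation, 2.46% of the exon bases of Cubn and 2.87% of those of Dab2 coincide with a gene on the opposite strand. Those genes were not analysed here, and whether counting used the strand is not given in the sources used here.

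Among the secreted products, Apoe was by far the most abundant. It encodes apolipoprotein E, a ligand of several lipoprotein receptors (ENSMUSG00000002985, chromosome 7 from 20281622 to 20284401 in mm9). Its level was 1274 CPM in Fbxl10 T/T, from 31463 reads, and 1645 CPM in WT, from 39280 reads, or 1.29-fold lower (1.27 to 1.31). The log2 ratio of -0.37 was ordinary among all genes, 34.6% of which had a lower one.

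Apoa2, which encodes a structural apolipoprotein of high-density lipoprotein (ENSMUSG00000005681, chromosome 1 from 173155185 to 173156510 in mm9), was the lowest relative to WT. It had 2.03 CPM in Fbxl10 T/T (50 reads) and 13.3 CPM in WT (318 reads), 6.57-fold lower (4.87 to 9.05), and 5.64% of genes had a lower log2 ratio. Its level was modest in WT, and in Fbxl10 T/T it stood at 15.2% of that level, against 77.5% for Apoe.

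Apob encodes the obligate scaffold of very-low-density lipoprotein, which visceral endoderm exports to the embryo. It (ENSMUSG00000020609, chromosome 12 from 7984479 to 8023305 in mm9) was scarce in both libraries, at 0.365 CPM in Fbxl10 T/T (9 reads) and 1.72 CPM in WT (41 reads), 4.71-fold lower (2.25 to 11.02). Apoa1, the main apolipoprotein gene of high-density lipoprotein (ENSMUSG00000032083, chromosome 9 from 46036792 to 46038546 in mm9), had 0.284 CPM in Fbxl10 T/T (7 reads) and 1.09 CPM in WT (26 reads), 3.84-fold lower (1.62 to 10.5). Both reached 1 CPM in WT alone, so they could enter the comparison only by being higher there. The log2 ratio of Apoa1, at -1.02, was just past the 2-fold line, and with 1 CPM added in place of 0.5 neither gene was called (-0.70 for Apoa1 and -0.99 for Apob).

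Ttr, which encodes the carrier of thyroxine and retinol-binding protein (ENSMUSG00000061808, chromosome 18 from 20823914 to 20832383 in mm9), had 8.06 CPM in Fbxl10 T/T (199 reads) and 6.57 CPM in WT (157 reads). The ratio of 1.23 had a counting interval of 0.990 to 1.52, so a difference was not detectable at this depth, and its log2 ratio of 0.28 turned to -0.01 when both libraries were scaled to the total of listed reads.

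**Figure D2:**
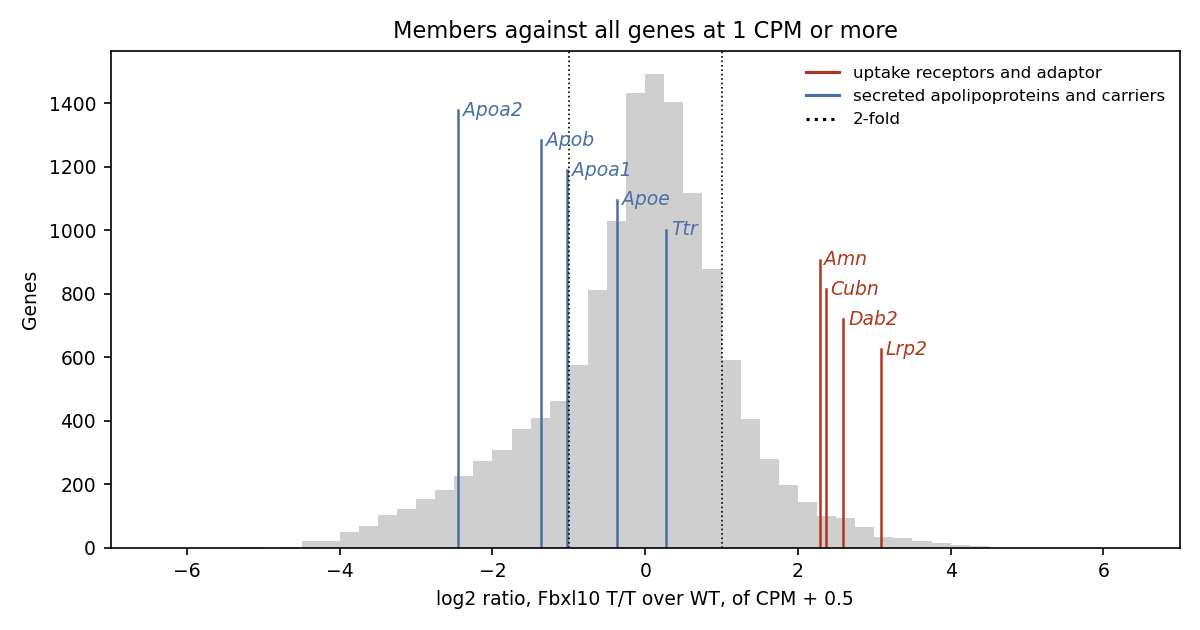
Histogram of the log2 ratio, Fbxl10 T/T over WT, of the 13512 genes that reached 1 CPM in either library (x axis, after adding 0.5 CPM; y axis, number of genes), with a line for each measured member at a height that carries no value and dotted lines at 2-fold. The 4 receptor and adaptor genes lie between 2.29 and 3.09, and the 5 secreted genes between -2.45 and 0.28, where Ttr is positive except when both libraries are scaled to the total of listed reads.

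The levels of different genes were compared per kilobase of exon, with lengths from GENCODE M21. In Fbxl10 T/T the order was Apoe (596 CPM per kb), Amn (170), Dab2 (145), Lrp2 (126), Cubn (72.2), Ttr (6.80), Apoa2 (3.77), Apoa1 (0.229) and Apob (0.0262). In WT the order was Apoe (769 CPM per kb), Amn (34.6), Apoa2 (24.8), Dab2 (23.9), Lrp2 (14.8), Cubn (14.0), Ttr (5.54), Apoa1 (0.881) and Apob (0.123). In WT, Apoa2 thus stood above Lrp2 and Cubn, and in Fbxl10 T/T below all 4 receptor and adaptor genes. Apoe exceeded Lrp2 by 4.73 times in Fbxl10 T/T and by 52.1 times in WT.

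Amn exceeded its partner Cubn by 2.35 times in Fbxl10 T/T and 2.48 times in WT, so the RNA ratio of this pair was nearly the same in both libraries. This restates their near-equal folds, and the proteins of the complex were not measured. Lrp2 exceeded Cubn by 1.74 times in Fbxl10 T/T and 1.06 times in WT. With the length of the longest transcript instead, these ratios were 1.42 and 0.862, so the order of Lrp2 and Cubn in WT is uncertain, and Dab2 then stood above Amn both in Fbxl10 T/T (229 and 184 CPM per kb) and in WT (37.7 and 37.5), where both were above Apoa2 (25.7).

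**Figure D3:**
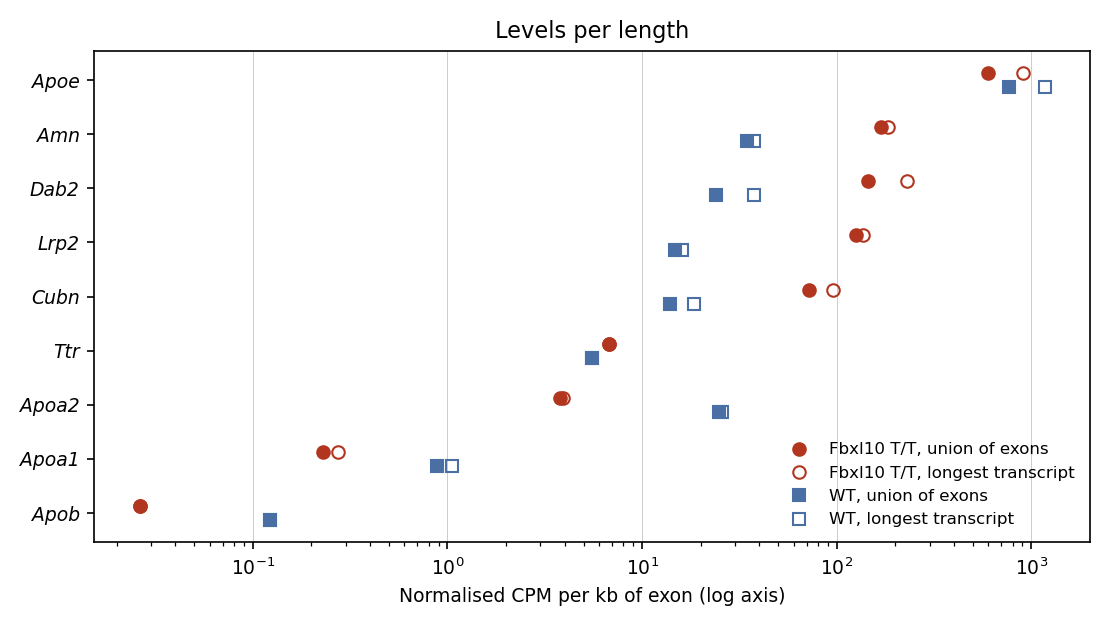
Normalised CPM per kb of exon on a log axis for the 9 measured members, Fbxl10 T/T as circles above WT as squares, with filled symbols for the union of annotated exons and open symbols for the longest transcript. Apoe leads in both libraries, the 4 receptor and adaptor genes stand at 72.2 to 170 in Fbxl10 T/T and 14.0 to 34.6 in WT (union of exons), and Apoa2 is the secreted gene whose place in the order shifts most.

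Other lipoprotein receptors did not share a direction. Of 15 genes of lipoprotein receptors and their relatives measured among 19 listed, 6 were higher, 3 lower and 6 in between, with a median log2 ratio of -0.05 that became 0.29 among genes at 5 CPM or more. Higher were Vldlr, the very-low-density lipoprotein receptor, at 30.3 CPM in Fbxl10 T/T and 5.78 CPM in WT, and Lrp8, an apolipoprotein E and reelin receptor, at 51.8 and 10.2 CPM. Scarb1, which takes up cholesterol from high-density lipoprotein, was 2.17-fold and Lrp10 2.22-fold higher. Lrp1, the broadly expressed relative of megalin, was 3.69-fold lower at 42.6 CPM in Fbxl10 T/T against 157.2 CPM in WT, and Sorl1, a sorting receptor, 12.3-fold lower at 1.78 against 22.0 CPM. Fibroblasts also express Lrp1. Of the 26 feeder markers described below, 5 were called lower and 21 lay within 2-fold (median -0.69), beside 20.6% of all genes called lower. The part of feeder RNA in the value of Lrp1 was not tested.

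Chaperones and cargo adaptors of these receptors differed among themselves. Lrpap1 encodes RAP, the endoplasmic reticulum chaperone that keeps ligands off megalin and its relatives, and it had 3231 CPM in Fbxl10 T/T and 511.1 CPM in WT, 6.32-fold higher (6.20 to 6.44). Of 16 chaperone and cargo adaptor genes, 7 were higher, 3 lower and 6 in between (median 0.82), and scaling to the upper quartile or to the total of listed reads left 6 higher. Myo6, the minus-end-directed motor of apical endocytosis, was 6.91-fold higher and Hip1r, a clathrin-actin linker, 4.34-fold. The 2.12-fold lower Numbl and Dab1, the reelin pathway relative of Dab2, went the other way, Dab1 at 0.810 CPM in Fbxl10 T/T and 10.6 CPM in WT.

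Most genes of the general clathrin machinery were not called. Of 22 genes for clathrin, the AP2 adaptor, dynamins and their partners, 17 lay within 2-fold, 3 were higher and 2 lower, with a median of 0.32. Such calls were no more frequent than among all genes, of which 14.8% were called higher and 20.6% lower. Epn3, 1 of the lower genes, held 1.34 CPM in WT and 0 reads in Fbxl10 T/T, so the minimum fixed its direction. The AP2 genes Ap2a1 (187.3 CPM in Fbxl10 T/T and 218.5 CPM in WT), Ap2a2 (413.6 and 326.0 CPM), Ap2b1 (236.8 and 309.4 CPM) and Ap2m1 (104.8 and 80.1 CPM) and the dynamin gene Dnm2 (190.5 and 193.3 CPM) were within 1.5-fold, and the AP2 gene Ap2s1 was 1.88-fold higher (168.2 and 89.5 CPM). The exceptions included clathrin itself, with Cltc, the heavy chain, at 633.8 CPM in Fbxl10 T/T and 236.1 CPM in WT (2.68-fold) and Cltb, a light chain, 3.83-fold higher. Dnm1, the neuronal dynamin, was 5.11-fold lower.

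Of 22 genes of endosome recycling and acidification, with the lysosomal gene Ctns among them, 10 stood higher and none lower (median 0.75). Over all genes, 14.8% were called higher and 20.6% lower. The 10 became 8 after scaling to the upper quartile and 7 after scaling to the total of listed reads (median 0.45). Clcn5, the endosomal chloride-proton exchanger on which megalin uptake in the kidney depends, had 220.1 CPM in Fbxl10 T/T and 39.7 CPM in WT, 5.54-fold higher (5.17 to 5.94). Ctns, the lysosomal cystine transporter, was 4.86-fold and Appl2, a Rab5 effector, 3.69-fold higher. Rab11a and Rab11fip5 of recycling endosomes and the retromer gene Vps26a were 2.29- to 2.94-fold higher. Rab5c of early endosomes (346.9 CPM in Fbxl10 T/T and 234.9 CPM in WT) and Rab7 of late endosomes (453.2 and 313.0 CPM) were not called, nor were the recycling genes Rab11b (75.6 and 55.8 CPM) and Rab4a (71.2 and 40.1 CPM), which were picked after their values were seen.

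Genes for ligands of megalin and cubilin, and for carriers that deliver them, divided into 5 higher, 7 lower and 3 in between among 15 (median -0.77). Over all genes, 14.8% were called higher and 20.6% lower. Of the 15, 2 reached 1 CPM in WT alone and could enter only by being higher there. With a minimum of 5 CPM, 5 were higher and 5 lower (median -0.49). Clu encodes clusterin, also called apolipoprotein J, and had 3666 CPM in Fbxl10 T/T against 245.9 CPM in WT, 14.9-fold higher (14.5 to 15.3). Tcn2, the transcobalamin that carries vitamin B12 to cells, was 5.85-fold higher at 457.7 against 78.2 CPM, Folr1, a folate receptor, 2.70-fold and Plat, tissue plasminogen activator, 10.7-fold. Lower were Bmp4 (2.67 CPM in Fbxl10 T/T and 62.2 CPM in WT) and the Wnt antagonist gene Sfrp2 (1.01 and 5.61 CPM). The list shares Clu with the other apolipoproteins, Plat with the parietal endoderm markers and 2 genes with the other serum proteins given below.

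Of 15 genes of lipoprotein assembly and export, 7 were higher, 1 lower and 7 in between (median 0.99). Among them, 1 reached 1 CPM in Fbxl10 T/T alone and Apobec1 in WT alone, so the minimum fixed their directions. Mttp, which loads lipid onto apolipoprotein B and was picked after its value was seen, had 32.2 CPM in Fbxl10 T/T and 16.2 CPM in WT, just under the 2-fold line at a log2 ratio of 0.97. P4hb, the shared subunit of microsomal triglyceride transfer protein and prolyl hydroxylase, was 4.13-fold higher at 3507 against 848.8 CPM. Surf4, a cargo receptor of lipoprotein export, was 3.44-fold higher, Lpcat3, a phospholipid-remodelling enzyme of lipoprotein formation, 6.70-fold and Soat1, which esterifies cholesterol, 5.94-fold. Pla2g12b had 72.1 CPM in Fbxl10 T/T and 5.49 CPM in WT, and is 1 of 2 genes that this list shares with the visceral endoderm markers given below. The lower gene was Apobec1, which edits Apob messenger RNA, at 0.527 CPM in Fbxl10 T/T (13 reads) and 8.37 CPM in WT (200 reads), 15.9-fold lower (9.09 to 30.4).

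Apart from clusterin, other apolipoprotein genes were low or alike. Of 20 listed, 9 were measured: 2 were higher, 1 lower and 6 in between, with a median of 0.23 that was -0.01 after scaling to the total of listed reads. Apom reached 1 CPM in Fbxl10 T/T alone and Apol6, the lower one, in WT alone, so the minimum fixed their directions. Apoc1, the neighbour of Apoe, had 43.8 CPM in Fbxl10 T/T and 30.99 CPM in WT. Apom, which carries sphingosine 1-phosphate, had 3.93 CPM in Fbxl10 T/T (97 reads) and 0.670 CPM in WT (16 reads), 5.86-fold higher (3.44 to 10.7). Apoa4, Apoa5, Apoc2, Apoc3 and Apoc4 were not analysed here.

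Of 33 other serum protein genes listed, 12 had a value and 11 reached 1 CPM in a library, of which 9 were lower, 1 higher and 1 in between (median -1.48). Of the 11, 7 reached 1 CPM in WT alone and had to be lower in Fbxl10 T/T to do so, so this count is a description only. Serpinf1, which encodes pigment epithelium-derived factor, was the most abundant, at 45.7 CPM in Fbxl10 T/T and 94.7 CPM in WT, 2.07-fold lower (1.93 to 2.23). Fetub, a fetuin gene, had 2.19 CPM in Fbxl10 T/T and 34.96 CPM in WT (15.98-fold lower), and Cpn1, a carboxypeptidase subunit gene, had 0.608 and 5.74 CPM. F2, the prothrombin gene, was the higher one, with 74 reads in Fbxl10 T/T and 25 in WT (2.86-fold, 1.80 to 4.70). This call was lost with 1 CPM added in place of 0.5, with a minimum of 5 CPM and with scaling to the upper quartile or to the total of listed reads. The gene of retinol-binding protein, the partner of transthyretin, was at 0.405 CPM in Fbxl10 T/T (10 reads) and 1.55 CPM in WT (37 reads). Rbp4 was picked after its value was seen. Alb, the neighbour of Afp, was not analysed here.

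**Figure D4:**
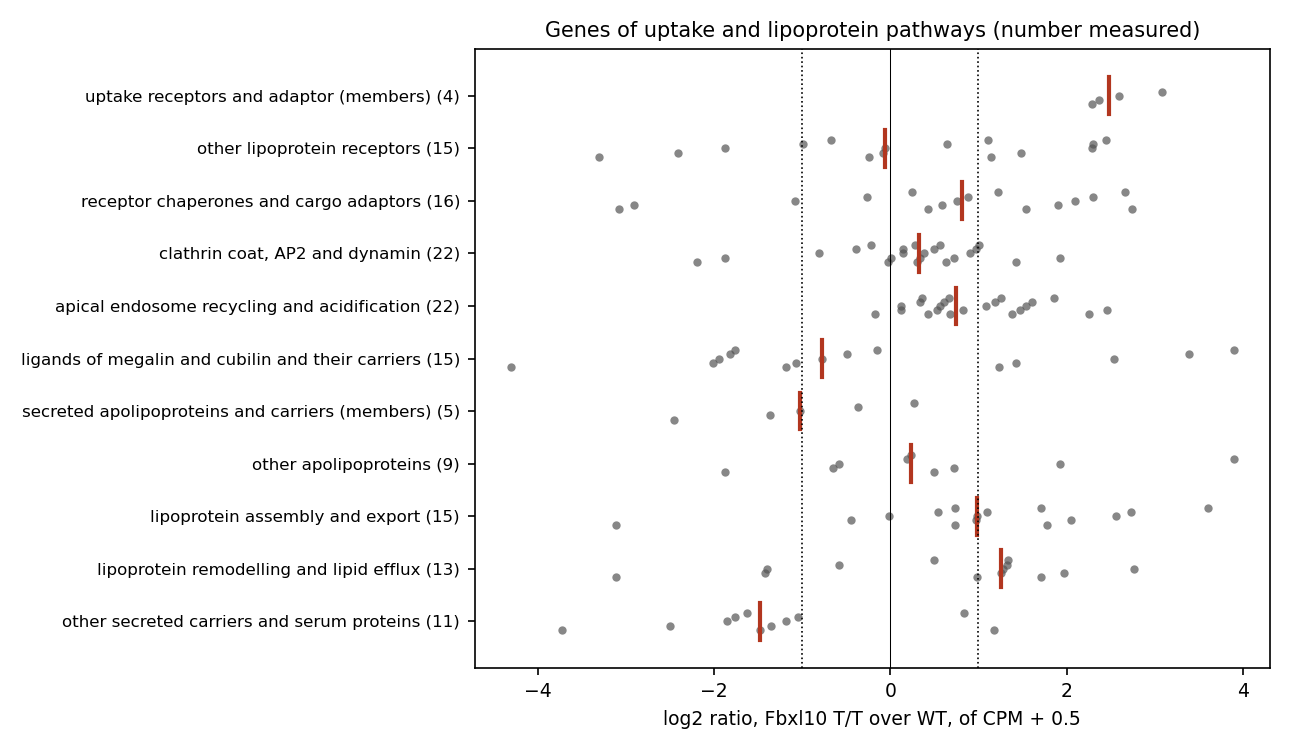
Log2 ratio, Fbxl10 T/T over WT, of each measured gene (grey points; x axis, after adding 0.5 CPM), by gene list, with the number measured in brackets, the list median as a red bar and dotted lines at 2-fold. The 4 receptor and adaptor genes have a median of 2.48, the endosomal genes 0.75 and the assembly genes 0.99. The secreted members (-1.02, and -0.37 with a minimum of 5 CPM) and other serum proteins (-1.48) include genes that passed the minimum in WT alone. The near-zero medians of other lipoprotein receptors (-0.05) and other apolipoproteins (0.23) change sign with a minimum of 5 CPM and with scaling to the total of listed reads.

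The label of these genes as visceral endoderm genes was set against markers of the endoderm and of other cells. Of 25 measured visceral endoderm markers outside the 10 genes, 10 were higher, 6 lower and 9 in between, with a median of 0.36 that was -0.01 after scaling to the total of listed reads. Their summed level was 1887 CPM in Fbxl10 T/T and 1471 CPM in WT. Of the 25, 2 reached 1 CPM in WT alone, Tmprss2 among them. Foxa2 (12.0-fold), Ihh (11.9-fold) and Bmp2 (8.47-fold) were higher, as was Hnf4a, an activator of Apob and Apoa1 in the liver that was picked after its value was seen, at 41.0 CPM in Fbxl10 T/T and 5.28 CPM in WT. Tmprss2 (0.365 against 7.62 CPM), Nodal (34.1 against 182.6 CPM) and the E-cadherin gene Cdh1 (163.6 against 715.1 CPM) were lower. Nodal and Cdh1 are also expressed in ES cells.

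Parietal endoderm, the migratory sister layer that lays down Reichert's membrane, had 24 measured markers, of which 18 were higher and 2 lower (median 2.70). Their summed level was 85261 CPM in Fbxl10 T/T and 11935 CPM in WT, and those with the largest ratios were Stra6 (19.0-fold higher), Sox17 (14.4-fold) and Lama1 (12.2-fold). Dab2 and Lrp2 also belong to primitive endoderm, from which both layers derive, so Dab2 and Lrp2 alone do not tell the layers apart. Whether Cubn and Amn do so was not tested. The counts of the marker lists were not tested against each other.

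Transcription factors that act on these genes in liver or visceral endoderm were 10 higher, 7 lower and 8 in between among 25 (median 0.47), and scaling to the total of listed reads gave 11 lower. This list shares 5 genes with the visceral and 3 with the parietal markers. In it, 1 gene reached 1 CPM in WT alone (Foxa1) and 1 in Fbxl10 T/T alone. Gata4 had 1478 CPM in Fbxl10 T/T and 136.4 CPM in WT, and Srebf2, an activator of sterol genes, 565.4 and 235.3 CPM. Nr5a2, an activator of the Afp and Apoa1 genes, was at 1.74 CPM in Fbxl10 T/T and 25.3 CPM in WT (14.5-fold lower), and the liver factor genes Foxa1 (0.324 against 5.57 CPM) and Cebpa (1.09 against 7.41 CPM) were lower as well.

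Markers of the fibroblast feeders gave 26 measured genes of 28, with none higher, 5 lower and 21 in between (median -0.69). Their summed level was 1915 CPM in Fbxl10 T/T and 3658 CPM in WT. Col1a1 (117.3 CPM in Fbxl10 T/T and 101.6 CPM in WT) was alike, and Fn1 (437.1 and 1418 CPM), which many cells express, was lower. The 5 became 12 or 13 after scaling to the upper quartile or to the total of listed reads. The part of feeder RNA in the lower values of Apoe, Apoa2, Apob and Apoa1 was not tested. Of 21 hepatocyte markers only Ass1 and Fah were measured, both lower, and of 16 markers of kidney proximal tubule and gut only Cdx2, Slc5a1 and Aqp1.

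**Figure D5:**
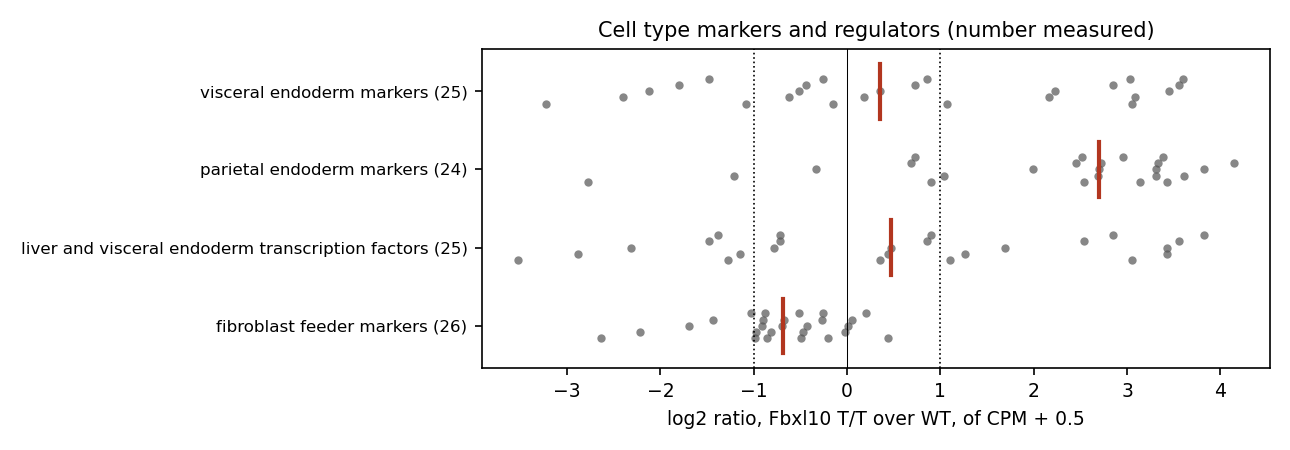
Log2 ratio, Fbxl10 T/T over WT, of each measured gene (grey points; x axis, after adding 0.5 CPM) for the marker lists and the transcription factor list, with the number measured in brackets, the median as a red bar and dotted lines at 2-fold. The median is 2.70 for parietal endoderm, 0.36 for visceral endoderm (-0.01 when scaled to the total of listed reads), 0.47 for the transcription factors and -0.69 for the feeder markers.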

How the data were processed

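Polyadenylated RNA was sequenced from ES cells, with 1 library per genotype. The submitters' processing notes name the build mm9 and, without saying what each did, edgeR, HTSeq 0.5.3p9 and TopHat 1.4.1. Annotation and strandedness of counting were not stated. The authors deposited a normalised signal per gene and library, and a log2 ratio of WT over T/T, which the ratios of the signal matched within 0.0028 over 9311 genes at 5 CPM or more. All signal values (100%) were whole multiples of a step per library within 0.01 reads (0.0405 CPM in T/T, 0.0419 in WT), so whole reads were recovered. The T/T column sums to 1098136, so it is not plain CPM.

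Repeated rows (11086) were identical and used once. Genes were matched by file symbol, then by GENCODE M21 symbol of the ID. Lengths, the union of exons, were found for 13443 genes. Si, listed for the ID of another gene, was left out. Fold intervals are exact binomial and level intervals exact Poisson (95%); reads may be PCR copies, so both cover counting error only. These steps were tested on simulated reads. An exact two-sided binomial test of the reads with Benjamini-Hochberg adjustment, which compares the libraries and not the genotypes, called 5792 genes higher and 5580 lower at 0.05.

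The members and the 15 other lists were chosen with earlier results of these data known. Named list genes are the 3 largest and 3 smallest ratios of a list and those at 100 CPM or more, or fewer. No gene is named for likeness of pattern, as 2 libraries give 1 ratio. Alternatives tried were 3 rescalings, folds of 1.5 and 4, a minimum of 5 CPM or none, pseudocounts of 0.1 and 1 CPM, and the binomial test. Work was done in Python 3.11.15 with scipy 1.17.1, pandas 2.3.3 and numpy 2.4.6, and figures with matplotlib 3.10.9. The longest transcript as length and the pluripotency markers were added after the data were seen. Some list genes are not reported here.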

Additional observations from a re-analysis of the deposited data

How the results depend on the processing

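No paired analysis was possible because each genotype had a single library, which also means that leaving a library out gave no comparison. All 4 receptor and adaptor genes were called higher under each pseudocount, minimum, scaling and fold threshold run, with a median of 2.24 after scaling to the upper quartile and 2.18 after scaling to the total of listed reads. The 3 lower secreted members became 1 (Apoa2) with 1 CPM as pseudocount, under a minimum of 5 CPM, where fewer genes enter, and under a 4-fold threshold. All genes called higher numbered 3582 at 1.5-fold and 519 at 4-fold, and those called lower 1229 at 4-fold. Under a minimum of 5 CPM 1737 were lower, beside 1828 higher. Adding the binomial test left 1994 and 2781. It could remove few genes, since by itself it called 5792 higher and 5580 lower, so these unchanged counts say little. Scaling to the total of listed reads reversed the Ttr ratio (-0.0120) and the medians of other apolipoproteins (-0.0139) and visceral endoderm markers (-0.0146), and a minimum of 5 CPM that of other lipoprotein receptors (0.29), since fewer genes remained. The feeder median became -0.93 and -0.99 and the hepatocyte median -2.61 and -2.68 after scaling to the upper quartile and to the total, and the kidney and gut median -3.07 with a pseudocount of 0.1 CPM. Scaling subtracts nearly a constant, and a pseudocount shrinks low ratios, by construction. Of 119 list medians under alternatives, 109 kept their sign and stayed within the interval of the main median. This was a 95% interval from the ranked ratios of the list, or the full range of a list too short for one. Apoa1 and Apob rest on 7 and 9 reads in Fbxl10 T/T.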

Other observations

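Genes that remodel lipoproteins or move cholesterol out of cells and lysosomes numbered 13 measured, of which 7 stood higher and 3 lower, with a median log2 ratio of 1.25 (Fbxl10 T/T over WT). Of the 13, 1 reached 1 CPM in Fbxl10 T/T alone and could enter only by being higher there. Lipg, the endothelial lipase, had 31.1 CPM in Fbxl10 T/T and 4.15 CPM in WT, 7.49-fold higher (95% counting interval 6.07 to 9.34). Pltp, which transfers phospholipid between lipoproteins, had 204.2 CPM in Fbxl10 T/T and 51.8 CPM in WT. The lysosomal cholesterol carrier gene Npc2 had 656.1 and 269.8 CPM.

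The sterol efflux genes of the same list divided. Abca1, which loads cholesterol onto apolipoprotein A-I, had 23.3 CPM in Fbxl10 T/T (574 reads) and 6.74 CPM in WT (161 reads), 3.45-fold higher (2.89 to 4.13). Abcg1, which exports cholesterol to mature high-density lipoprotein, had 1.05 CPM in Fbxl10 T/T (26 reads) and 12.9 CPM in WT (309 reads), 12.3-fold lower (8.22 to 19.1).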
